A study of Bubalus bubalis with 6 samples.

Results

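The genes described here are 10 regulators of alternative splicing that act in muscle, RBFOX1, RBFOX2, MBNL1, MBNL2, MBNL3, CELF1, CELF2, PTBP1, QKI and RBM24. They were chosen by name, with earlier results of these data known, and each of the 10 has 1 row among the 24616 genes of the deposited gene table. Their expression was compared in primary muscle stem cells (MuSCs) isolated from fetal longissimus muscle of water buffalo (Bubalus bubalis). The 3 GM samples were proliferating MuSCs in growth medium with fetal bovine serum, and the 3 DM samples were MuSCs moved to a differentiation medium with horse serum when nearly confluent, a switch that leads to myotube fusion. No genetic change or drug was used in either group. The labels do not say whether the 3 samples of a group came from separate animals or cultures. The p-values set the difference between the groups against the spread within them, which may be technical. Polyadenylated RNA was sequenced, and 35615864 to 40305237 reads per sample were counted on genes. DM replicate 3 stood apart from DM replicates 1 and 2. A chi-square of gene counts, divided by its degrees of freedom, was 42.5 and 43.3 between it and them, against 12.2 between the other two and 6.43 to 11 among GM samples. The calls of the members, and the counts of called genes in the lists of related regulators and regulated exons, were therefore also made without it. Values of single samples are given in the order of replicates 1, 2 and 3.

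An exon can be kept in or left out of a mature mRNA, and RNA-binding proteins that sit on or near the exon decide which form is made. PTBP1 binds pyrimidine-rich RNA and keeps many neuron and muscle exons out in dividing cells. MBNL, RBFOX, RBM24 and QKI proteins act on many of the exons used by differentiated muscle, while CELF1 and CELF2 act against MBNL proteins on a shared set of exons. Loss of MBNL function together with a gain of CELF1 is the known defect of splicing in myotonic dystrophy. All 10 measurements below are gene levels, which do not show the exons these proteins act on.

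In DM samples PTBP1 fell by 1.32 on the log2 scale, while RBM24 rose 2.73-fold and RBFOX1 rose from a level near 0. These 3 genes were the only members called in the comparison of DM with GM samples by edgeR's quasi-likelihood test, where a call took a log2 fold change beyond 1 in either direction together with a Benjamini-Hochberg adjusted p-value under 0.05 over all tested genes. The share of 30% was close to the background, since 25.3% of the 15576 tested genes were called. By direction, 2 members were called higher in DM samples, against a background of 15%, and 1 was called lower, against 10.3%. With no minimum fold change, 6 of the 10 members had an adjusted p-value under 0.05, against a background of 63% of genes. Of these 6, 3 were higher (background 31.6%) and 3 were lower (background 31.4%). The median log2 fold change of the members was -0.10, and that of all tested genes was 0.03. All 10 members passed the minimum of 10 counts in total over the 6 samples. The GM range and the DM range were apart in CPM for 9 of the members, and 68.8% of all tested genes showed no overlap. The members as a group therefore moved about as often as other genes did, and the individual changes ranged from a strong rise to a fall.

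**Figure D1:**
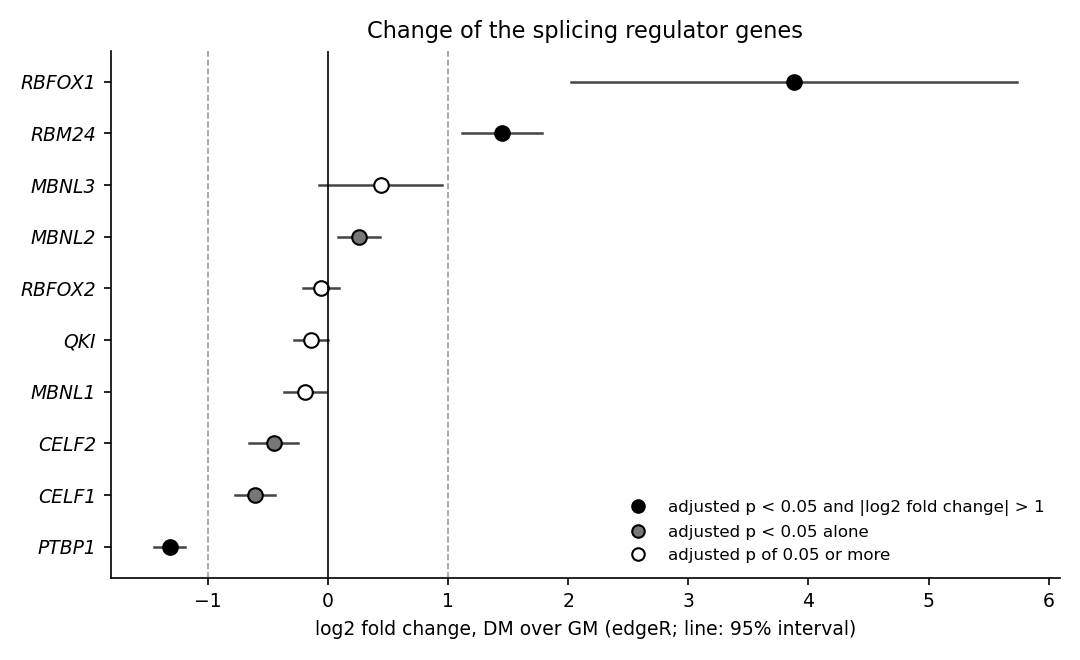
Log2 fold change of each of the 10 splicing regulator genes in DM over GM samples (horizontal axis, edgeR fit) with its 95% interval, ordered by size, with dashed lines at -1 and 1. The black points of RBFOX1, RBM24 and PTBP1 pass the call rule, the grey points of MBNL2, CELF2 and CELF1 pass on the adjusted p-value alone, and the white points of MBNL3, RBFOX2, QKI and MBNL1 pass neither.

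PTBP1 (ENSBTAG00000045828, chromosome 7, 45016275 to 45026949, plus strand in the cattle annotation of the deposited table, whose genome build is not given in the sources used here) is the general repressor of the group. Its level was 912, 933 and 891 CPM in the GM samples, where CPM is the count scaled to a common library size after TMM normalization. In the DM samples it was 368, 352 and 377 CPM. The 2 groups were far apart, and the samples within a group differed little. PTBP1 fell from 912 ± 21.0 CPM to 366 ± 12.7 CPM (SD, n = 3 each), a log2 fold change of -1.32 (standard error 0.059, 95% interval -1.45 to -1.19, adjusted p = 2.60e-08 from edgeR). It was 2.49-fold higher in GM samples. Each sample held between 12427 and 38798 reads of the gene. Leaving out any single sample kept the log2 fold change between -1.33 and -1.27. Because these are bulk samples, fewer cells that express a gene cannot be told apart from less of its RNA per cell, here and for the genes below.

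**Figure D2:**
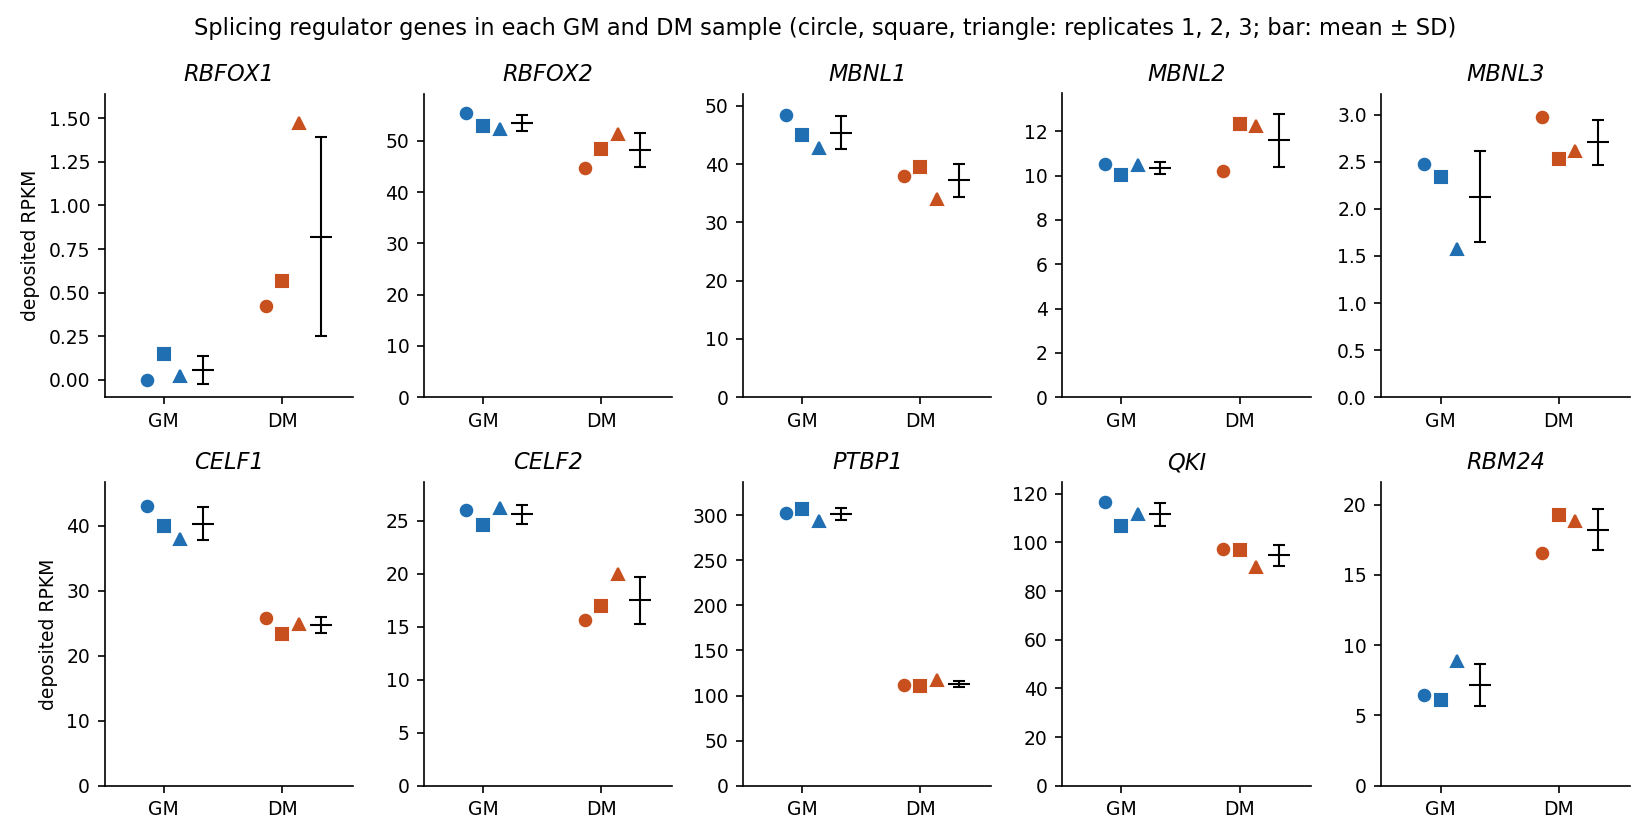
Deposited RPKM (vertical axes, a separate linear scale for each gene) of the 10 splicing regulator genes in the 3 GM samples (blue) and 3 DM samples (orange), with circles, squares and triangles for replicates 1, 2 and 3 and black marks for the mean ± SD. PTBP1 lies at 294 to 307 RPKM in the GM samples and at 111 to 117 RPKM in the DM samples, RBM24 lies above its GM range in each DM sample, and RBFOX1 is highest in DM replicate 3.

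RBM24 (ENSBTAG00000015396, chromosome 23, 39835982 to 39846198, minus strand), an RNA-binding protein of heart and skeletal muscle that promotes the inclusion of muscle exons, changed in the opposite direction. Its level was 5.16, 4.90 and 7.09 CPM in the GM samples. In the 3 DM samples it was 14.4, 16.2 and 16.1 CPM. Every DM sample had at least 14.4 CPM, above the highest GM sample, replicate 3. RBM24 rose from 5.72 ± 1.2 to 15.6 ± 1.0 CPM (SD, n = 3 each), a log2 fold change of 1.45 (standard error 0.15, 95% interval 1.11 to 1.78, adjusted p = 1.05e-05 from edgeR). Without DM replicate 3 its log2 fold change was 1.43.

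RBFOX1 (ENSBTAG00000007210, chromosome 25, 6481524 to 6686788, plus strand) had the largest log2 fold change of the members and the fewest reads. The RBFOX proteins bind the RNA word GCAUG, and RBFOX1 is found mainly in neurons, heart and skeletal muscle. The GM samples held 0, 7 and 1 reads of the gene, and a count of 0 allows up to 3 reads, by counting error only. The DM samples held 18, 25 and 67 reads. The groups did not overlap, but DM replicate 3 had more reads than DM replicates 1 and 2 together. In CPM the level went from 0.0649 ± 0.0905 to 1.01 ± 0.698 (SD, n = 3 each). RBFOX1 rose by a log2 fold change of 3.88 (standard error 0.84, 95% interval 2.02 to 5.73, adjusted p = 0.00207 from edgeR). The size of this change depended on single libraries: it was 3.15 without DM replicate 3, with an adjusted p-value of 0.000427 from edgeR, and 5.99 without GM replicate 2.

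DM replicate 3 also differed from the other DM samples in markers of cell types. SNAP25, a neuron marker that codes for a protein of synaptic vesicle release and is named here after its values were seen, had 3, 3 and 153 reads in DM replicates 1, 2 and 3, and 1 to 3 reads in GM samples. The summed RPKM of 6 listed neuron markers was 312 in DM replicate 3, 169 and 170 in the other DM samples and 174 to 196 in GM samples. STMN2 alone gave 291 of the 312 RPKM. TUBB3 had 17.2, 16.1 and 19.4 RPKM and SYT1 had 0.155, 0.132 and 0.241 RPKM in DM replicates 1, 2 and 3. Both were thus highest in replicate 3 among the DM samples, but below every GM sample there too. GAP43 and RBFOX3 had 3 reads or fewer in every sample. The summed RPKM of 9 skeletal muscle markers was 2509, 2692 and 3471 in DM replicates 1, 2 and 3. The part of these shifts in the RBFOX1 values was not tested.

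CELF1 (ENSBTAG00000002520, chromosome 15, 78490888 to 78570865, minus strand), which binds GU-rich RNA and also promotes mRNA decay, was lower in DM samples without reaching the minimum fold change. Its level was 93.1, 86.6 and 82.4 CPM in the GM samples. The DM samples had 61.1, 53.4 and 57.4 CPM. The lowest GM sample was well above the highest DM sample. The log2 fold change was -0.61 (standard error 0.075, 95% interval -0.78 to -0.44, adjusted p = 3.83e-05 from edgeR). CELF2 (ENSBTAG00000008937, chromosome 13, 12934868 to 13000042, minus strand), its close relative, was lower as well. It had 35.5, 33.7 and 35.8 CPM in GM samples against 23.3, 24.4 and 29.1 CPM in DM samples, again with no overlap. Its log2 fold change was -0.45 (standard error 0.091, 95% interval -0.65 to -0.25, adjusted p = 0.00142 from edgeR). Both intervals lie inside -1 to 1, so a change of CELF1 or CELF2 as large as the minimum for a call falls outside them.

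The 3 muscleblind genes code for zinc finger proteins that bind YGCY words in RNA, and they showed small differences that did not share a direction. MBNL1 (ENSBTAG00000004564, chromosome 1, 116238831 to 116394390, minus strand) had 71.7, 66.9 and 63.5 CPM in the GM samples, while the DM samples had 61.6, 61.8 and 54.0 CPM. The groups were just apart. Its log2 fold change was -0.19 (standard error 0.078, 95% interval -0.36 to -0.02), and the adjusted p-value of 0.0544 from edgeR missed the threshold. With libraries scaled by their size and no TMM factor the log2 fold change was -0.29, with an adjusted p-value of 0.00856 from edgeR.

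MBNL2 (ENSBTAG00000018313, chromosome 12, 78283460 to 78445751, plus strand) was higher in DM samples. The GM samples had 35.5, 34.0 and 35.4 CPM, and the DM samples had 37.7, 43.8 and 44.2 CPM. DM replicate 1 lay closest to the GM samples, and on the RPKM scale, which has no TMM factor, it lay among them. The log2 fold change was 0.26 (standard error 0.079, 95% interval 0.09 to 0.44, adjusted p = 0.0143 from edgeR). The adjusted p-value was 0.116 with library size alone and 0.0523 without GM replicate 2, both from edgeR. MBNL3 (ENSBTAG00000014088, chromosome X, 16113422 to 16173828, minus strand), the muscleblind gene known from dividing and regenerating muscle cells, had few reads. It had 101, 96 and 59 reads in GM samples and 108, 96 and 102 reads in DM samples, or 2.10 ± 0.475 and 2.86 ± 0.301 CPM (SD, n = 3 each). Its log2 fold change of 0.44 (standard error 0.23, 95% interval -0.07 to 0.95, adjusted p = 0.118 from edgeR) was not distinguished from 0. It moved between 0.27 without GM replicate 3 and 0.56 without GM replicate 1.

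RBFOX2 and QKI were well expressed and showed differences near 0. RBFOX2 (ENSBTAG00000020125, chromosome 5, 74257475 to 74473002, minus strand), the widely expressed RBFOX gene, had 71.4, 68.5 and 67.7 CPM in the GM samples. In the DM samples it had 63.0, 66.0 and 70.8 CPM. It was the only member whose groups overlapped in CPM, while on the RPKM scale its groups were apart and those of MBNL2 overlapped. Its log2 fold change was -0.05 (standard error 0.067, 95% interval -0.20 to 0.10, adjusted p = 0.504 from edgeR). QKI (ENSBTAG00000011593, chromosome 9, 100370037 to 100480357, plus strand), a KH domain protein that binds ACUAA words and is needed for splicing in muscle and glia, had 167, 154 and 161 CPM in GM samples and 153, 147 and 138 CPM in DM samples. The highest DM sample was just under the lowest GM sample. Its log2 fold change was -0.14 (standard error 0.064, 95% interval -0.28 to 0.0019, adjusted p = 0.0786 from edgeR). With libraries scaled by their size and no TMM factor, QKI had a log2 fold change of -0.24 and an adjusted p-value of 0.00696 from edgeR. For both genes the interval leaves room for differences of less than 0.3 on the log2 scale.

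**Figure D3:**
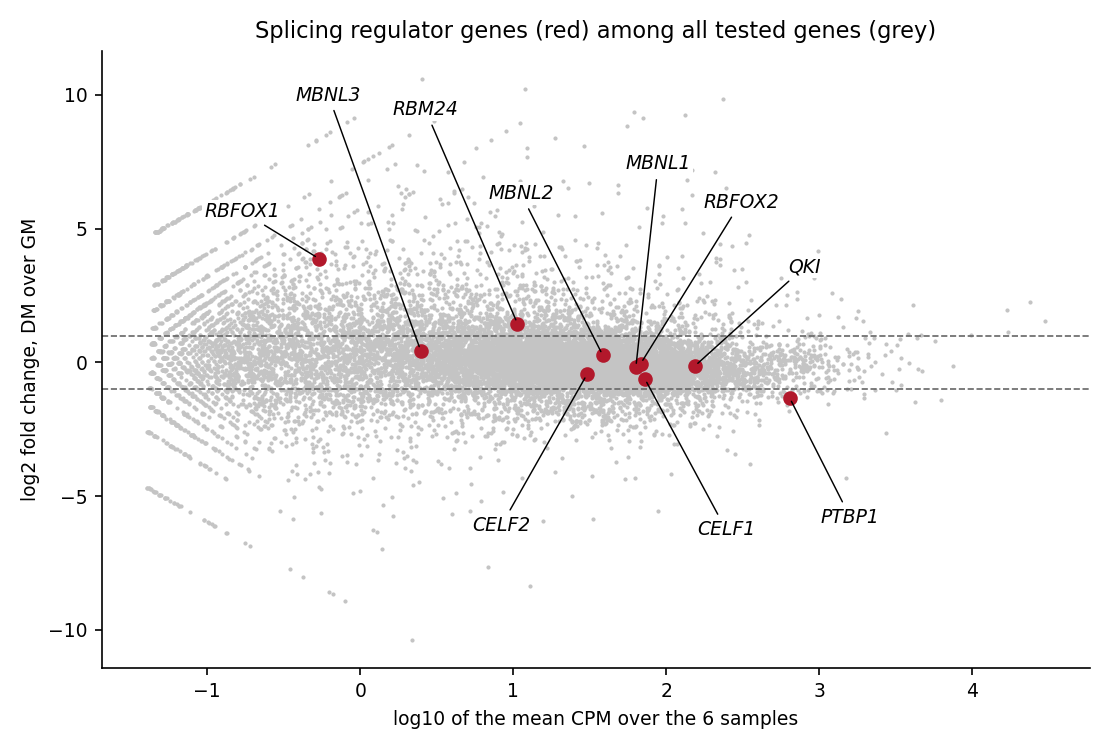
Log2 fold change in DM over GM samples (vertical axis) against the log10 of the mean CPM over the 6 samples (horizontal axis) for all 15576 tested genes (grey) and the 10 splicing regulator genes (red), with dashed lines at -1 and 1. PTBP1 lies among the more abundant genes and below the lower line, RBFOX1 lies in the range of low counts and above the upper line, and RBM24 lies just above the upper line.

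Levels of different members can be set side by side only per length. RPKM, the count per kilobase of the deposited gene length scaled to the summed gene counts of the sample, was used for this. In GM samples the order was PTBP1 with 301 ± 6.68 RPKM, QKI with 112 ± 4.79, RBFOX2 with 53.5 ± 1.62, MBNL1 with 45.4 ± 2.86, CELF1 with 40.3 ± 2.56, CELF2 with 25.6 ± 0.880, MBNL2 with 10.3 ± 0.266, RBM24 with 7.15 ± 1.5, MBNL3 with 2.13 ± 0.483 and RBFOX1 with 0.0563 ± 0.0785 (SD, n = 3 each). Of the neighbours in this order, MBNL1 and CELF1 overlapped between samples. In DM samples the first 5 places were held by the same genes in the same order, with PTBP1 at 113 ± 3.40 RPKM and QKI at 94.6 ± 4.13 RPKM. RBM24 had moved from the eighth to the sixth place with 18.2 ± 1.47 RPKM, level with CELF2 at 17.5 ± 2.21 RPKM, with which it overlapped. PTBP1 was thus far above QKI in GM samples and close to it in DM samples. The gene lengths behind these values run from 827 bases for RBM24 to 3498 bases for MBNL2, and a gene whose untranslated regions are only partly annotated can be misplaced in this order. The reads of the 10 genes together made up 0.139 to 0.145% of all gene counts during proliferation (GM) and 0.0745 to 0.0768% in DM samples. PTBP1 held 65.4 to 67.4% of these reads in the GM samples, and without it the share was 0.0466 to 0.050% there and 0.0396 to 0.0409% in the DM samples. These shares of all gene counts carry no TMM factor either, which places DM samples lower against GM samples than CPM does.

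Related genes within a family were compared by the log2 ratio of their RPKM values, with 0.1 RPKM added to each, which hardly depends on how libraries are scaled against each other. RBFOX1 was far below RBFOX2 in all samples. Its log2 ratio to RBFOX2 was -9.12, -7.75 and -8.74 in the GM samples, while the DM samples had log2 ratios of -6.42, -6.19 and -5.03. The first of these values is set by the added 0.1 RPKM, since RBFOX1 had no read in GM replicate 1. With 1 RPKM added the difference between the groups was 0.90 in place of 2.65. RBFOX1 made up 0.106 ± 0.148% of the summed RBFOX1 and RBFOX2 RPKM in GM samples and 1.63 ± 1.02% in DM samples (SD, n = 3 each), so the RBFOX mRNA of both groups was almost all RBFOX2. The log2 ratio of MBNL1 to MBNL2 went from 2.12 ± 0.0887 to 1.68 ± 0.209 with no overlap. The log2 ratio of MBNL3 to MBNL1 went from -4.37 ± 0.262 to -3.73 ± 0.158, also with no overlap. MBNL1 remained the most abundant of the 3 muscleblind genes, with 78.4 ± 0.397% of their summed RPKM in GM samples and 72.2 ± 2.36% in DM samples. The sum over the 3 genes was 57.9 ± 3.35 RPKM in GM samples and 51.5 ± 2.72 RPKM in DM samples. RPKM carries no TMM factor, so summed levels in DM samples lie lower against GM samples than they would in CPM. The ratio of CELF2 to CELF1 overlapped between the groups, with a log2 ratio of -0.65 ± 0.103 in GM samples and -0.50 ± 0.206 in DM samples, while the sum of both genes went from 65.9 ± 2.74 to 42.2 ± 2.29 RPKM. A two-sided exact permutation test gave p = 0.1 for each of the 3 ratios without overlap, which is as low as 3 samples against 3 can go. Adjusted by Benjamini-Hochberg over the 4 ratios, this exact p was 0.133. For the ratio of CELF2 to CELF1 the exact permutation p was 0.3.

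**Figure D4:**
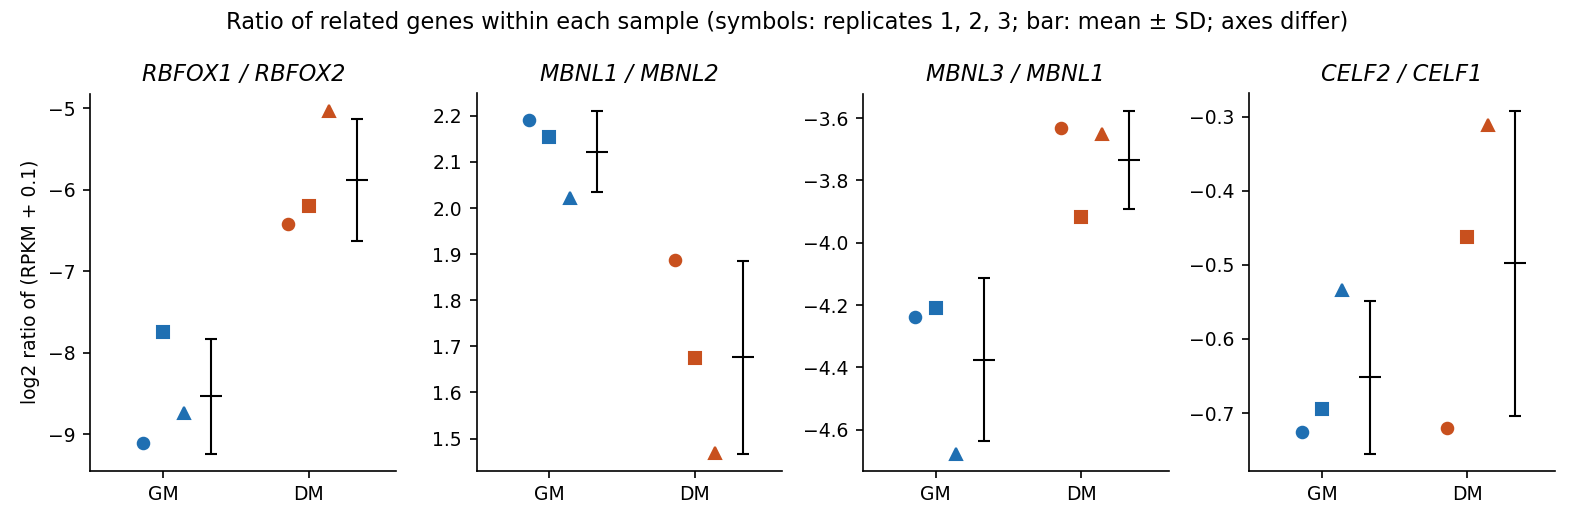
Log2 ratio of (RPKM + 0.1) between related genes within each GM (blue) and DM (orange) sample, on separate vertical axes that do not start at 0, with circles, squares and triangles for replicates 1, 2 and 3 and black marks for the mean ± SD. The ratios of RBFOX1 to RBFOX2, MBNL1 to MBNL2 and MBNL3 to MBNL1 do not overlap between the groups, and that of CELF2 to CELF1 does.

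The deposited mRNA table lists 11 transcripts of the 10 genes, 2 for PTBP1 and 1 for each of the others. Their reads are the same as those of the gene table, so they are no independent measurement. For the single transcripts the counts equal the gene counts. The 2 PTBP1 transcripts, of 3131 and 1731 bases, share exons and reads. The count of the longer equals the gene count in every sample, so reads of the shorter were counted for the longer too. Their ratio therefore does not show how much of either transcript was made. The shorter held 65.1 ± 0.534% as many reads as the longer in GM samples and 64.4 ± 1.83% in DM samples (SD, n = 3 each), with overlap between the groups. edgeR called 4 of the 11 transcripts, against 25.6% of the 16352 tested mRNAs. Those of RBFOX1 and RBM24 were called higher (background 15.5%) and both of PTBP1 lower (background 10.1%). PTBP1 thus enters this count, and those that follow, with 2 transcripts of shared reads. With no minimum fold change 8 of the 11 passed on the adjusted p-value (background 64.6%), 3 higher and 5 lower (background 32.3% in each direction), the transcript of MBNL1 among them with an adjusted p-value of 0.0349 from edgeR. In 10 of the 11 the groups did not overlap (background 70.2%). The log2 fold changes of the PTBP1 transcripts were -1.34 for the longer (adjusted p = 1.80e-08 from edgeR) and -1.35 for the shorter (adjusted p = 2.45e-08 from edgeR).

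Other tissue-type splicing regulators were drawn up as a list of 29 genes, of which 25 are listed in the table under these symbols and 20 were tested. edgeR called 3 of them (15%, against 25.3% of all tested genes), 1 higher (background 15%) and 2 lower (background 10.3%). Their median log2 fold change was -0.15. With no minimum fold change 11 of the 20 (55%, background 63%) had an adjusted p-value under 0.05. Of these, 4 were higher (background 31.6%) and 7 lower (background 31.4%). The called genes that were lower are RAVER1 and RAVER2, which code for partner proteins that bind PTBP1 and act with it in repression. RAVER1 had 118, 124 and 117 CPM in the GM samples, and the DM samples had 53.8, 56.8 and 55.7 CPM. It fell by 1.11 on the log2 scale (standard error 0.061, adjusted p = 1.05e-07 from edgeR). RAVER2 fell by 1.42 on the log2 scale, from 2.53 ± 0.202 to 0.944 ± 0.239 CPM (SD, n = 3 each, adjusted p = 0.000650 from edgeR). Both calls were lost when genes were tested against a fold change of 2, with edgeR adjusted p-values of 0.0858 for RAVER1 and 0.111 for RAVER2. The third called gene, KHDRBS2, a STAR family RNA-binding protein related to QKI, is named here after its values were seen. It had 4, 2 and 2 reads in GM samples and 26, 35 and 33 in DM samples, and rose by a log2 fold change of 3.66 (adjusted p = 7.23e-05 from edgeR).

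Among relatives of the members, PTBP3, a paralog of PTBP1, had a log2 fold change of -0.26 (95% interval -0.48 to -0.04, adjusted p = 0.0398 from edgeR) with overlap between the groups, at 31.8 ± 2.68 CPM in GM samples and 26.6 ± 3.07 CPM in DM samples (SD, n = 3 each). CELF4 had 12 to 44 reads per GM sample and 11 to 17 per DM sample, and CELF5 had 5 to 29 and 15 to 45 in the same order. Neither of them passed the threshold, with adjusted p-values of 0.125 and 0.157 from edgeR. CELF3 and RBFOX3, whose products are known from neurons, had at most 2 reads in any sample. PTBP2 and CELF6 are not listed under these symbols and were not analysed here, so the ratio of PTBP2 to PTBP1 was not computed.

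A list of 28 genes with exons known to be spliced by these regulators was compared at the gene level. Of these, 24 were tested, and TPM1, which is listed under 2 identifiers, was left out. edgeR called 11 of the 24 (45.8%, against 25.3% of all tested genes), all of them higher in DM samples (background 15%). The median log2 fold change of the 24 was 1.09. Many of these genes code for contractile proteins, which the list holds because their exons are well studied. The list was also drawn up with earlier results of these data known, so its share above the background is not an independent result. TNNT3, fast skeletal troponin T, rose most, from 11.9 ± 2.86 to 334 ± 36.2 CPM (SD, n = 3 each), by a log2 fold change of 4.82 (adjusted p = 6.17e-09 from edgeR). ATP2A1, the calcium pump of the fast muscle sarcoplasmic reticulum, rose from 4.98 ± 2.10 to 104 ± 27.3 CPM, by a log2 fold change of 4.38 (adjusted p = 3.43e-07 from edgeR).

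For 11 of these genes the mRNA table holds at least 2 tested transcripts. The count of each further transcript was set against that of the gene's most counted transcript in the same sample, which made 14 comparisons. In 6 of the 14, in TNNT2, TNNT3, TPM2, NEB, DTNA and PDLIM5, the GM range and the DM range were apart. TNNT3 gave 4 of the 14 comparisons, and in the other 3 the groups overlapped. Over all genes with several tested transcripts 18.5% of 1527 such comparisons showed no overlap, a set that was not matched for read number. These 6 genes are named here after their values were seen. The 547-base transcript of TNNT2, cardiac troponin T, an exon of which is regulated by CELF and MBNL proteins, held 55.4, 56.5 and 55.0% as many reads as the 581-base transcript in the GM samples. The DM samples had 49.6, 49.9 and 48.9%. The spread within each group was small beside the difference. In NEB, nebulin, the share went from 52.0 ± 1.82% to 42.2 ± 2.19%. In PDLIM5, a Z-disc adaptor protein, it went the other way, from 50.2, 48.1 and 51.5% in the GM samples to 59.3 ± 1.13% (SD, n = 3) in the DM samples. DTNA, dystrobrevin, had the widest difference and the fewest reads, down to 21 in a sample, and went from 38.3 ± 9.83% to 64.0 ± 7.92%. TNNT3 and TPM2 differed by less than 4 percentage points, from 93.7 ± 1.35% to 90.4 ± 0.898% in the 863-base transcript of TNNT3 and from 66.4 ± 1.12% to 69.7 ± 0.900% in TPM2. Transcripts of a gene share reads, since the summed transcript counts exceed the gene count in 97.3% of the 1584 genes with several transcripts and a count, so these shares are not exon inclusion levels. For 3 samples against 3 an exact permutation test cannot give a p under 0.1.

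**Figure D5:**
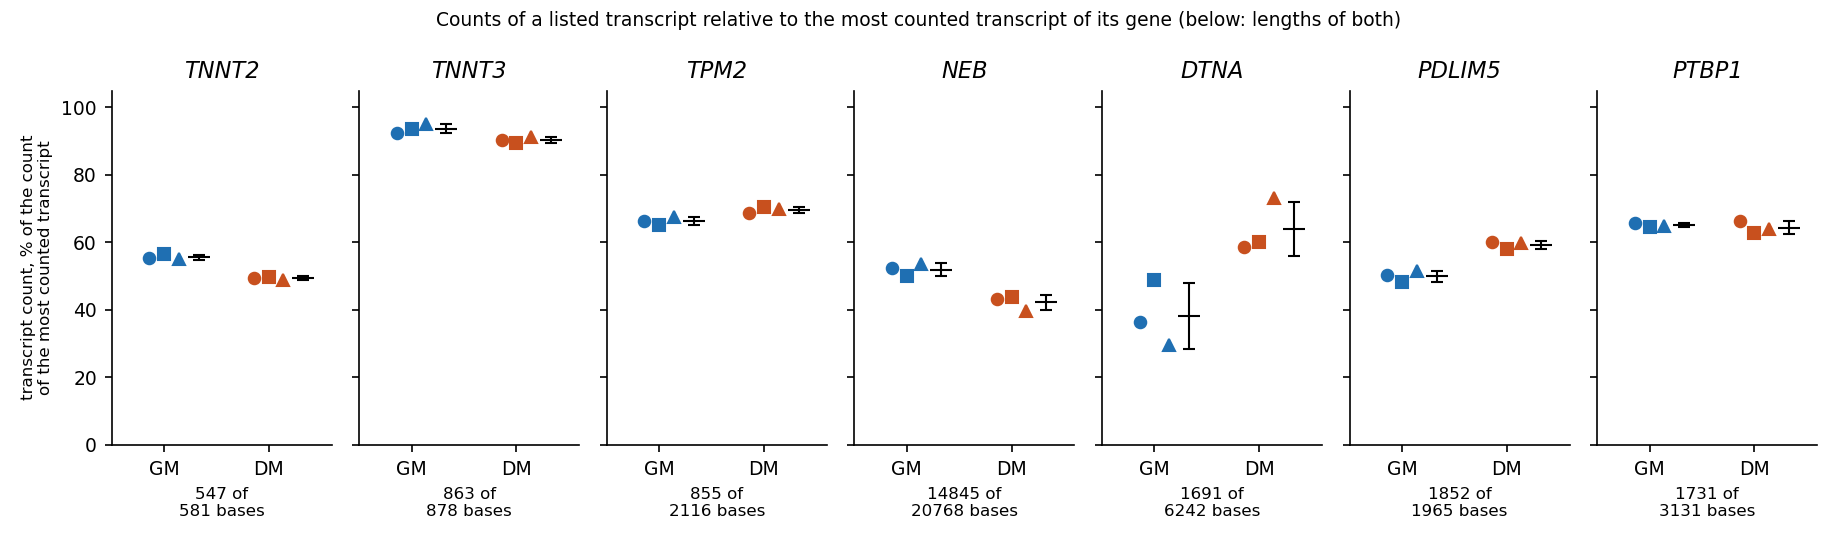
Count of a listed transcript as a percent of the count of the most counted transcript of the same gene (vertical axis) in each GM (blue) and DM (orange) sample, with circles, squares and triangles for replicates 1, 2 and 3, black marks for the mean ± SD, and the lengths of both transcripts under each panel. TNNT2, NEB and the 863-base transcript of TNNT3 are lower in each DM sample than in each GM sample, TPM2, DTNA and PDLIM5 are higher, and PTBP1 overlaps.

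Among genes with a symbol and a mean of at least 1 CPM, the patterns most like those of PTBP1 and RBFOX1 over the 6 samples were looked up by the root mean square distance between log2 CPM values centred on each gene's mean. For PTBP1 these were TTLL4, SSRP1 and SRRT, at distances of 0.021, 0.029 and 0.031 on the log2 scale. Their log2 fold changes were -1.31, -1.29 and -1.31. A similar log2 fold change follows from the choice by pattern, here and for RBFOX1, and is no further result. For RBFOX1 they were PLXDC1, NIM1K and CYTIP, at distances of 0.44, 0.57 and 0.57, with log2 fold changes of 3.35, 2.78 and 3.30. RBFOX1 itself lies below that minimum and had 0, 7 and 1 reads in GM samples, so its distances cannot be compared with those of PTBP1.

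The labelled cell type was checked against marker genes. Of 9 skeletal muscle markers in the table, 5 were called higher and 1 lower in DM samples. Over all tested genes 15% were called higher and 10.3% lower, which is the background for each marker list here. The summed RPKM of the 9 markers ranged from 1279 to 1514 in GM samples and from 2509 to 3471 in DM samples. CKM had the largest rise, 6.32 on the log2 scale, followed by TNNT1 with 4.41. The marker called lower was MYF5, with -2.70. PAX7 and DES were also lower, with -0.92 and -0.15, and were not called. MYF5, PAX7 and DES are named here after their values were seen. Of 10 fibroblast markers, 7 were called higher, led by DCN and FAP with 2.37 and 2.31. POSTN, named here after its values were seen, was lower with -0.93 and was not called. The 10 fibroblast markers summed to 8252 to 8470 RPKM in GM samples and 21268 to 26393 RPKM in DM samples. The lowest DM sum was that of replicate 3. The cultures therefore carried RNA of both marker sets, and the share of cells behind the splicing regulator levels was not measured. Smooth muscle markers summed to 3166 to 3268 RPKM per GM sample and 2252 to 2572 RPKM per DM sample, where LMOD1 was called higher and SMTN lower. Markers of adipocytes, endothelial cells and leukocytes each summed to at most 6.67 RPKM in any sample. LEP, PTPRC, CD3E and LYZ had 3 reads or fewer in every sample. Within those low sums the calls went both ways. Of the adipocyte markers 2 were called higher, CIDEC among them, and PPARG was called lower. Of the 6 endothelial markers TEK was called higher and 3 were called lower. Of the leukocyte markers CD14 was called higher and CD68 lower.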

How the data were processed

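RNA-seq of 3 GM and 3 DM samples was used. The authors deposited raw counts per gene and per mRNA transcript, not normalized. HISAT2 is named as the aligner. The methods name a buffalo assembly, the identifiers are those of cattle, and the submitters' processing notes list Bowtie 0.12.2 with builds mm8 and mm9, so the build is taken as not known. The counter and its strand setting are not given in the sources used here. The RPKM columns were deposited by the authors, and equal the count divided by the Length column and the sample's summed counts. The authors' own lists of differential features (log2 fold changes, p-values, q-values) and the ncRNA table were not used. No sample column was left unmapped.

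Genes with at least 10 counts in total were tested with edgeR 4.0.16 in R 4.3.3 (TMM, glmQLFit, glmQLFTest), on the whole table. Standard errors come from the F statistic, and the 95% intervals are not adjusted for multiple testing. Tables were handled with Python 3.11.15, pandas 2.3.3 and scipy 1.17.1. Scripts were tested on simulated data. The members and lists were chosen with earlier results of these data known. Named genes are the 10 members and their paralogs, in each other list the 2 called genes with the largest change whose groups did not overlap and whose mean CPM was 1 or more, with others named where the text says so, and the 3 genes nearest in pattern to the members with the largest rise and fall. TMM factors were 1.03 to 1.04 in GM and 0.948 to 0.983 in DM samples. Alternatives were DESeq2 1.42.0, other normalizations, filters and call rules, a replicate block and each sample left out. RNA and protein sequences of the members were not analysed here. One further marker list is not reported here.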

Additional observations from a re-analysis of the deposited data

How the results depend on the processing

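The calls of PTBP1 and RBM24 kept their direction and their side of the thresholds under all 15 alternatives, and that of RBFOX1 under the 14 in which it was tested, since it misses the filter that over 50% of samples have an RPKM of 1 or more. Under that filter 2197 genes and 2264 mRNAs were called, 1 member was called higher, and 1 related regulator and 6 genes with regulated exons were called, from fewer genes tested. RBFOX2 then had a log2 fold change of 0.0020 in place of -0.05. With no minimum fold change the calls numbered 9813 genes, 10571 mRNAs, 6 members (3 of them lower), 8 member transcripts, 11 related regulators and 19 genes with regulated exons. Tested against a fold change of 2, they numbered 2293 genes, 2510 mRNAs and 1 related regulator. With a pseudocount of 1 RPKM the log2 ratio of RBFOX1 to RBFOX2 differed by 0.90 between the groups in place of 2.65, as a larger pseudocount shrinks the ratio of a gene near 0.

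With each sample left out in turn, 3 members stayed called (2 higher, 1 lower), along with 4 member transcripts, 3 to 4 related regulators, 11 to 12 genes with regulated exons, 3647 to 3995 genes and 3904 to 4274 mRNAs. The difference in log2 ratio then ranged from 2.23 to 3.05 for RBFOX1 to RBFOX2, from -0.55 to -0.34 for MBNL1 to MBNL2, from 0.49 to 0.73 for MBNL3 to MBNL1 and from 0.06 to 0.26 for CELF2 to CELF1.

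Same-numbered GM and DM samples did not deviate together (correlations of -0.0076, -0.022 and -0.010). A pairing with small effects could give the same values, so they do not show that the samples are unpaired. With the replicate block 3837 genes and 3 members were called, and MBNL1 had an adjusted p-value of 0.0466 from edgeR. RBFOX1 and MBNL3 had the fewest reads of the members and the largest standard errors, 0.84 and 0.23 on the log2 scale. The part of read number in these errors was not tested.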
